A study of Mus musculus with 4 samples.

Results

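The 48 genes described here encode the proteins that repair broken DNA and the checkpoint that holds the cell cycle while repair goes on. They were taken by gene symbol, and all 48 were among the 24084 gene rows of the count table and among the 12920 genes that had enough counts to be tested. They form 2 subgroups. The homologous recombination and Fanconi subgroup has 30 members (12 of the recombination core, 5 of end sensing and resection, 5 helicases and junction nucleases, 8 Fanconi genes). The other subgroup has 18 members (7 of end joining, 2 of mismatch repair, 9 of the checkpoint). RNA was sequenced from hair follicle stem cells sorted from the skin epidermis of C57BL/6 mice aged 7 to 10 weeks, 4 days after depilation, the removal of hair shafts. Every animal, WT included, was given diphtheria toxin (DT) by intraperitoneal injection at 15 ng/g. The Foxp3-DTR allele places the receptor for the toxin in regulatory T cells, the cells that express Foxp3, and DT kills them, whereas WT mice received DT without carrying the receptor. There were 2 WT libraries (replicates A and C) and 2 Foxp3-DTR libraries (replicates C and D), and no label states that they came from separate animals. A p-value here therefore reflects the spread among these 4 libraries alone, and that spread may be technical.

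Homologous recombination repairs a DNA break by copying the intact sister chromatid, so it works mainly in cells that have replicated their DNA, and many of its genes are expressed with the cell cycle. The Fanconi proteins unhook crosslinks that join both DNA strands and hand the break to recombination. End joining ligates broken ends without a template and is available throughout the cell cycle, including in resting cells. Hair follicle stem cells rest for long periods and divide when a new growth phase starts, which depilation sets off.

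Gene counts per library ranged from 13911765 to 15923154, and a member had between 12 and 2583 counts in a library. Levels are given in CPM, read counts relative to library size after TMM factors had corrected that size for composition. The markers of follicle stem cells were high in all 4 libraries, with a summed level of the 10 markers between 27400 and 34100 CPM. This sum includes Krt5, Krt14 and Itga6, which are not specific to stem cells. Sox9 stood between 550.1 and 670.5 CPM and Cd34 between 936 and 1708 CPM. Cd4 and Foxp3 had 0 counts in all 4 libraries, and the summed T cell markers ran from 3.45 to 13.1 CPM. Lum, Dpt and Corin of the 8 fibroblast markers and Cdh5, Kdr and Emcn of the 5 endothelial markers also had 0 counts, and these lists summed to 27.9 to 53.5 CPM and 1.91 to 4.74 CPM. Markers of suprabasal epidermis differed within each group instead of between groups, with summed levels of 8274 and 987.8 CPM in WT A and C and of 1205 and 7033 CPM in Foxp3-DTR C and D. Sebaceous gland markers summed to 2144 CPM in WT A and to 480 to 615 CPM in the other libraries, with negative fold changes in 6 of 6 genes (median -0.80). Melanocyte markers summed to 97.5 and 141 CPM in WT and 119 and 142 CPM in Foxp3-DTR, with positive fold changes in 5 of 6 genes tested. Their part in the members' values was not tested. Xist stood at 861 and 2482 CPM in the WT libraries and at 1.86 and 0 CPM in the Foxp3-DTR libraries, and 4 Y-linked genes had 0 counts in WT and 551 to 1770 counts in Foxp3-DTR. Genotype, sex and the code that differs between the library titles (DEP2 for WT, DEP3 for Foxp3-DTR) cannot be told apart.

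Most of the repair genes stood lower in Foxp3-DTR than in WT, and the lowest fold changes were those of recombination core, Fanconi and nuclease genes. Brca1, Rad54l and Fanci fell, 3 of the 48 members at an adjusted p under 0.05 by edgeR's quasi-likelihood test, and 0 members rose. Over all genes tested, 0.426% were called lower and 0.820% higher by the same rule. At an unadjusted p under 0.05, 23 members were lower and 0 higher, where 7.89% of all genes were lower. Both Foxp3-DTR libraries lay under both WT libraries for 36 members (75.0%), against 23.7% of all genes tested. The opposite order was seen for 1 member, Rad51d, against 22.0% of all genes. The groups overlapped for the other 11 members. The median log2 fold change, Foxp3-DTR over WT, was -0.62 for the 48 members and -0.01 for all genes. The members were chosen with earlier results of these data known, so these comparisons cannot show that they differ from all genes. In bulk RNA, fewer cells of a type and less RNA per cell cannot be told apart.

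The fold changes of the 3 genes stayed large when a library was left out, while their side of the threshold did not always hold. Without WT A or without Foxp3-DTR C, 0 members passed, with a lowest adjusted p among the 3 of 0.0581 and 0.126. The log2 fold changes were then -1.85 and -1.66 for Brca1, -2.10 and -2.31 for Rad54l and -1.73 and -2.08 for Fanci. Without WT C, 5 members were lower, the 3 among them. Without Foxp3-DTR D, 6 were lower, but Fanci was not (-2.12, edgeR adjusted p = 0.0505). Over all genes the count of lower calls rose without WT C or without Foxp3-DTR D. It dropped without Foxp3-DTR C, and by less without WT A. DESeq2, another count model, called 13 members lower and 0 higher. It called 3.77% lower of the 13619 genes to which it gave an adjusted p, a set unlike the 12920 tested by edgeR. Limma-voom and edgeR without the robust fit each called 0 members, with a lowest adjusted p among the 3 of 0.0503 and 0.0534. To the 3 genes DESeq2 added Bard1, Rad54b, Rad51ap1, Exo1, Brip1, Fanca, Fancd2, Chek1, Timeless and H2afx. The log2 fold change of 42 members kept its sign in each of 10 alternative settings, and that of Atrip, Fancm, Lig4, Pms2, Prkdc and Rad50 did not. For 10 members (Bard1, Brip1, Chek1, Eme1, Exo1, Fancb, H2afx, Polq, Rad51ap1, Rad51b) leaving out 1 library moved the fold by more than 1.5 times. None of these was called in the main edgeR fit, while DESeq2 called Bard1, Brip1, Chek1, Exo1, H2afx and Rad51ap1.

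**Figure D1:**
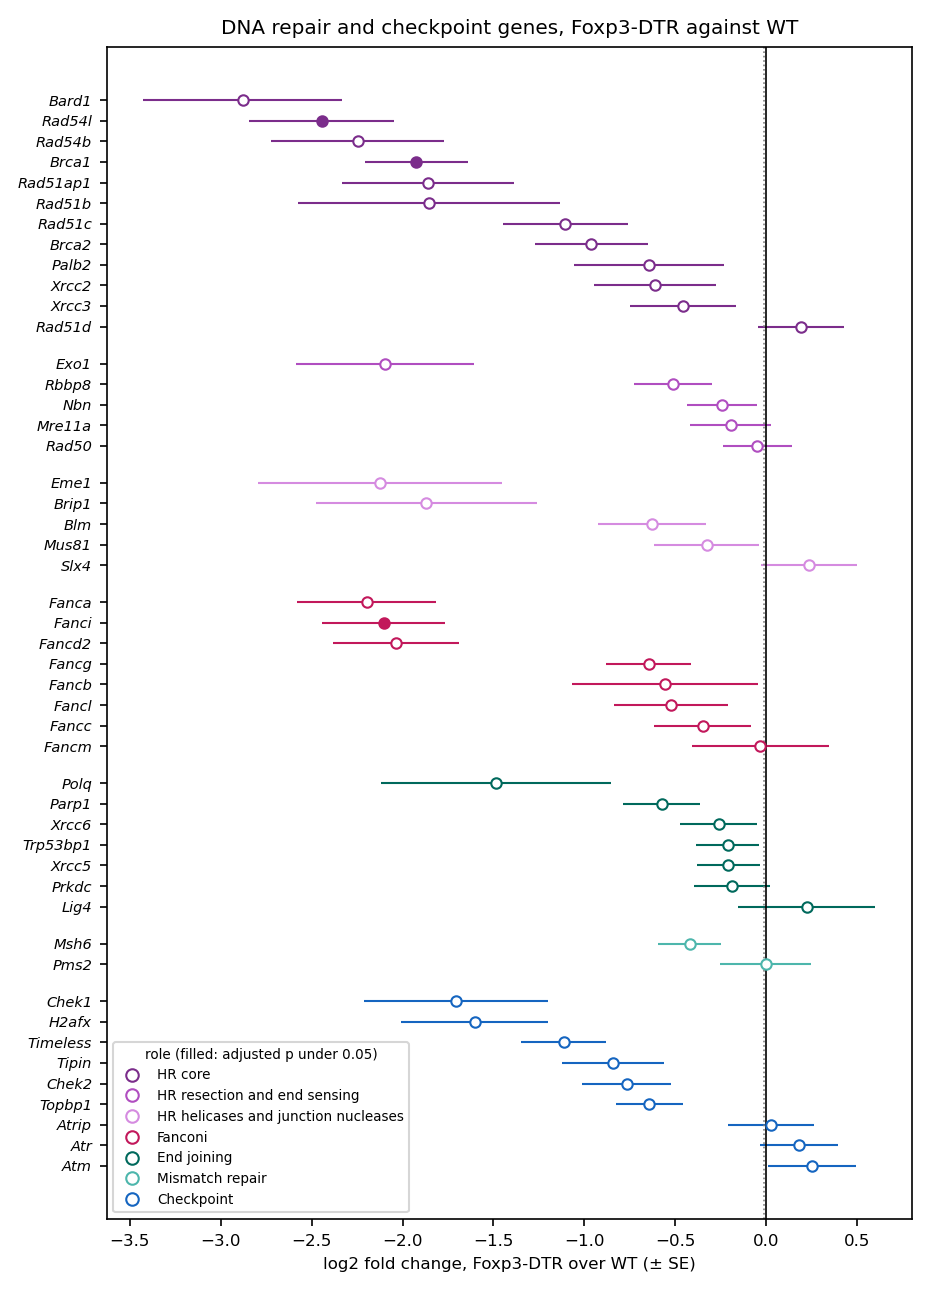
Log2 fold change of each of the 48 members, Foxp3-DTR over WT, with its standard error, by role; filled points have an adjusted p under 0.05 and the dotted line is the median of all genes (-0.01). In 6 of the 7 role groups some members lie at or under -1 while others of the same group lie near 0, and mismatch repair has 0 members at or under -1.

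The medians of the subgroups differed, with recombination and Fanconi genes farther from 0, but this did not hold for each role group. The checkpoint median (-0.77) lay farther from 0 than those of Fanconi genes (-0.60), helicases and nucleases (-0.63) and resection (-0.24). Of the 30 recombination and Fanconi members, 3 fell, 15 had an unadjusted p under 0.05 with a lower level in Foxp3-DTR, 13 lay at a log2 fold change of -1 or under (all genes tested: 7.47%), and the median was -0.64. Of the 18 end joining, mismatch repair and checkpoint members, 0 passed the adjusted threshold, 8 had an unadjusted p under 0.05, 4 lay at -1 or under, and the median was -0.34. Both Foxp3-DTR libraries were below both WT libraries for 24 of the 30 and for 12 of the 18. Of all genes tested, 23.7% had this order, 7.89% were lower at an unadjusted p under 0.05 and 0.426% were called lower. Summed over the 30 recombination and Fanconi genes, levels were 823 and 820.5 CPM in the WT libraries and 506 and 514 CPM in the Foxp3-DTR libraries. The sum of the other 18 was 1119 and 1075 CPM in WT and 844.6 and 825 CPM in Foxp3-DTR. Recombination and Fanconi genes thus made up 42.4% and 43.3% of the members' summed level in WT and 37.5% and 38.4% in Foxp3-DTR, and these ranges did not overlap. Mre11a, Rad50 and Nbn also activate the checkpoint kinase Atm. Where they were counted with the checkpoint genes, the medians were -0.96 for recombination and Fanconi genes and -0.24 for the others. Where Polq was counted with recombination and Exo1 with mismatch repair, the medians stayed at -0.64 and -0.34. The difference between the subgroups itself was not tested.

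Genes of the recombination core lay farther from 0 than any other role group by their median. Their products act where a resected end invades the sister chromatid at the matching sequence. Of the 12 genes 2 fell, and the median log2 fold change was -1.48. At an unadjusted p under 0.05, 8 were lower in Foxp3-DTR, and 11 had both Foxp3-DTR libraries below both WT libraries. Over all genes tested, 0.426% fell, 7.89% were lower at an unadjusted p under 0.05 and 23.7% had that order of libraries. Brca1 (ENSMUSG00000017146.12, chr11:101488764-101551955, minus strand, GRCm38) encodes the tumour suppressor that promotes resection of broken ends. It stood at 45.1 and 41.5 CPM in WT A and C and at 9.15 and 13.7 CPM in Foxp3-DTR C and D. The groups were well apart, and replicates of a group were close to each other in WT. Its level fell by 1.92 ± 0.29 on the log2 scale (SE, edgeR, adjusted p = 0.0427), so that WT was 3.79-fold higher. Rad54l (ENSMUSG00000028702.15, chr4:116094264-116123690, minus strand) encodes a motor protein that opens the duplex for strand exchange. Its levels were 22.2 and 14.6 CPM in WT and 3.05 and 3.68 CPM in Foxp3-DTR. WT A was the highest library, yet WT C also lay far above both Foxp3-DTR libraries. The log2 fold change was -2.45 ± 0.40 (SE, edgeR, adjusted p = 0.0486), a 5.45-fold higher level in WT. In the gene models, 15.4% of the exonic bases of Rad54l are shared with a neighbouring gene on the other strand, Lrrc41, and without the strand setting of the counter their reads cannot be told apart. The other members that share over 10% are Rad54b, Fanci, Fancl and H2afx (shares given with each) and Fancc (18.6%), Atrip (16.0%), Trp53bp1 (15.0%), Eme1 (10.7%) and Fanca (10.5%). The same holds for these except Rad54b and Atrip. Rad54b shares mostly with Fsbp and Atrip with Trex1, each on the same strand, where a strand setting would not separate the reads.

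Bard1, the obligate partner of Brca1 in its ubiquitin ligase, had the lowest fold change of the 48 with all libraries in the fit. It measured 23.4 and 24.2 CPM in WT and 1.59 and 4.89 CPM in Foxp3-DTR. Both Foxp3-DTR libraries were far below WT, and Foxp3-DTR C was the lower of them. The log2 fold change was -2.88 ± 0.55 with an adjusted p of 0.0676 by edgeR, which missed the threshold. It was -2.28 without Foxp3-DTR C and -3.89 without Foxp3-DTR D. Within a library, the ratio of Bard1 to Brca1 CPM (not corrected for gene length) was 0.52 and 0.584 in WT and 0.174 and 0.358 in Foxp3-DTR. The ratio differed between the Foxp3-DTR libraries more than between the WT libraries.

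The other core genes ranged widely. Rad54b, a relative of Rad54l, measured 16 and 10.3 CPM in WT and 2.19 and 3.33 CPM in Foxp3-DTR (log2 fold change -2.25 ± 0.47, edgeR adjusted p = 0.0801), and 35.9% of its exonic bases are shared with other genes, mostly Fsbp. Rad51ap1, which stimulates strand invasion, had a log2 fold change of -1.86 ± 0.47 (adjusted p = 0.120, edgeR). Brca2, a tumour suppressor that acts on resected DNA, stood at 25.7 and 26.7 CPM in WT and at 10.5 and 16.4 CPM in Foxp3-DTR (-0.96 ± 0.31, adjusted p = 0.209, edgeR). Its groups did not overlap, but its fold change was smaller than that of Brca1. Palb2, which bridges Brca1 and Brca2, was in WT the lowest member of the recombination and Fanconi subgroup per length, at 1.53 CPM per kilobase of exons. In Foxp3-DTR it stood at 0.979 and Rad54l was lower, at 0.437. Its 4 libraries measured 13.4 and 9.10 CPM in WT and 8.42 and 5.95 CPM in Foxp3-DTR, with WT C close to Foxp3-DTR C.

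Rad51b, Rad51c, Rad51d, Xrcc2 and Xrcc3, a family of related proteins that assist strand invasion, did not share a pattern. Rad51b measured 6.97 and 5.90 CPM in WT and 0.796 and 2.76 CPM in Foxp3-DTR, at a log2 fold change of -1.85 ± 0.72 (adjusted p = 0.301, edgeR), which was -1.21 without Foxp3-DTR C and -2.99 without Foxp3-DTR D. Rad51c had a log2 fold change of -1.10, Xrcc2 one of -0.61 and Xrcc3 one of -0.46, and none of these passed. Rad51d was the exception in sign, at 23.3 and 28.3 CPM in WT and 30.3 and 28.6 CPM in Foxp3-DTR. Foxp3-DTR D exceeded WT C by only a small margin, and the fold change of 0.19 ± 0.24 was smaller than its error. The ratio of Rad51b to Rad51d was 0.299 and 0.209 in WT and 0.0263 and 0.0968 in Foxp3-DTR. The difference between the genes was not tested.

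Promoter windows of the members were taken from RefSeq (GRCm38.p6), where 37 of the 48 members had an entry, 41 entries in all, each from 250 bases before to 50 after the start of transcription. Fancd2, Rbbp8, H2afx, Rad54b, Exo1, Rad50, Xrcc2, Nbn, Prkdc, Rad51d and Tipin had none. The windows below show 4 members with log2 fold changes from -1.87 to -2.45 that carry the CCAAT box, CCAAT or ATTGG on the other strand, which is known from promoters of cell cycle genes. Each is the 150 bases before the start, 5′ to 3′ on the strand of the gene, with the box in capitals.
Brca1, chr11:101551956-101552105, minus strand: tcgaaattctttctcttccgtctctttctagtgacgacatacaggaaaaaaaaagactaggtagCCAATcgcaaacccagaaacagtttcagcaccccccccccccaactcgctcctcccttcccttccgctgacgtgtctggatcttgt
Rad54l, chr4:116123690-116123839, minus strand: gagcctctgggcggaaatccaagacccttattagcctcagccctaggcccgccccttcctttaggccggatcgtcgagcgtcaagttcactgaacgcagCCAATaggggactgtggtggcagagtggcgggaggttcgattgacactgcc
Fanca, chr8:123318577-123318726, minus strand: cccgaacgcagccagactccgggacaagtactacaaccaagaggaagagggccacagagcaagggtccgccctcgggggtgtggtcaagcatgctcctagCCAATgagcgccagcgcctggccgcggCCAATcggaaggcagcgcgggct
Brip1, chr11:86201194-86201343, minus strand: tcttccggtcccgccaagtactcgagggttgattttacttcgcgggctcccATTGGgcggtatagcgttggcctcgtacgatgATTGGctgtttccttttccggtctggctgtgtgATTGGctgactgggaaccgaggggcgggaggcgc
Brca1 and Rad54l have 1 box each in these bases, Fanca has 2 and Brip1 has 3. In the Fanci window none of the 3 motifs searched was found. GENCODE annotates some bases before the RefSeq start as untranslated exon of the same or a neighbouring gene. In 18 of the 41 entries there were more than 30 such bases, and all entries were counted in the shares. Among these 18 were entries of Brca1 (57 bases), Bard1 (174), Chek2 (49) and Topbp1 (118), whose windows are shown here or below. Fanci, Fancg and Xrcc6 were also among them. A CCAAT box was in 56.1% of the members' windows (23 of 41), in 37.6% of the windows of all genes tested and in 37.4% of all windows. The share was 50.0% (8 of 16) in members at a log2 fold change of -1 or under and 60.0% (15 of 25) in the others. This difference was not tested. The 16 windows belong to 13 genes and the 25 to 24, so some genes were counted more than once.

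A further motif was the site of E2F factors, which drive S phase genes, searched as TTTCGCGC, TTTGGCGC, TTTCCCGC or TTTGCCGC on both strands. It was in 22.0% of the members' windows (9 of 41), against 3.88% of windows of genes tested and 2.26% of all windows. The windows below, of 68 bases with the site in capitals, come from members whose fold changes ran from that of Bard1 to that of Topbp1.
Bard1, chr1:71103144-71103211, minus strand: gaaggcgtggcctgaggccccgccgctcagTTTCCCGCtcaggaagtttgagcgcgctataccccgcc
Brca2, chr5:150522423-150522490, plus strand: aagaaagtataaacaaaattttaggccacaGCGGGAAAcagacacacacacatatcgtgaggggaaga
Chek2, chr5:110839801-110839868, plus strand: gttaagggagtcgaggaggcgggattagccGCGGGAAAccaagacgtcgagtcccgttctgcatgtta
Topbp1, chr9:103305168-103305235, plus strand: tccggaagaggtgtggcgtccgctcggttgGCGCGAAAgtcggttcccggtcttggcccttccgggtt
In Bard1 the letters read as searched, and in Brca2, Chek2 and Topbp1 they stand on the opposite strand. The log2 fold changes of these 4 genes were -2.88, -0.96, -0.77 and -0.64, so genes that share the motif had very different values. E2F letters were in 3 of 16 windows (18.8%) of members at -1 or under and in 6 of 25 (24.0%) of the others. The cell cycle homology region, TTTGAA or TTCGAA on both strands, was in 4 of 16 windows (25.0%) of members at -1 or under and in 1 of 25 (4.0%) of the others. It was in 12.2% of all the members' windows and in 13.4% of windows of genes tested. These are matches of letters in a window and not measured binding, the letters of none of the 3 motifs contain those of another, and the windows shown were chosen after the values were seen.

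End sensing and resection prepare the break for recombination, and here 1 of 5 genes stood apart from the rest. The complex of Mre11a, Rad50 and Nbn finds the broken end and starts the cut. Mre11a measured 34.6 and 41.2 CPM in WT and 35.1 and 31.2 CPM in Foxp3-DTR. Rad50 measured 69.6 and 77.3 CPM in WT and 77.1 and 64.8 CPM in Foxp3-DTR. Nbn measured 61.5 and 53.6 CPM in WT and 47.7 and 49.5 CPM in Foxp3-DTR. Libraries of the groups overlapped for Mre11a and Rad50, and Nbn was slightly lower in both Foxp3-DTR libraries. The 95% intervals of the log2 fold change were -0.73 to 0.34 for Mre11a, -0.50 to 0.40 for Rad50 and -0.70 to 0.22 for Nbn, so a fall of more than 0.73 on the log2 scale lay outside the interval of each of the 3. Nbn was the highest gene of the recombination and Fanconi subgroup per length, at 22.7 CPM per kilobase in WT and 19.2 in Foxp3-DTR. Rbbp8, which switches the nuclease on, measured 113 and 159 CPM in WT and 96.9 and 93.6 CPM in Foxp3-DTR (-0.51 ± 0.21, edgeR adjusted p = 0.342).

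Exo1, the exonuclease that extends the resected end, behaved unlike the sensors. Its levels were 25.3 and 20.9 CPM in WT and 2.98 and 7.79 CPM in Foxp3-DTR, at a log2 fold change of -2.10 ± 0.49 (adjusted p = 0.0981, edgeR). Both Foxp3-DTR libraries lay far below WT, and the ratio between them was larger than that between the WT libraries. The ratio of Exo1 to Rad50 CPM was 0.363 and 0.270 in WT and 0.0387 and 0.120 in Foxp3-DTR.

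**Figure D2:**
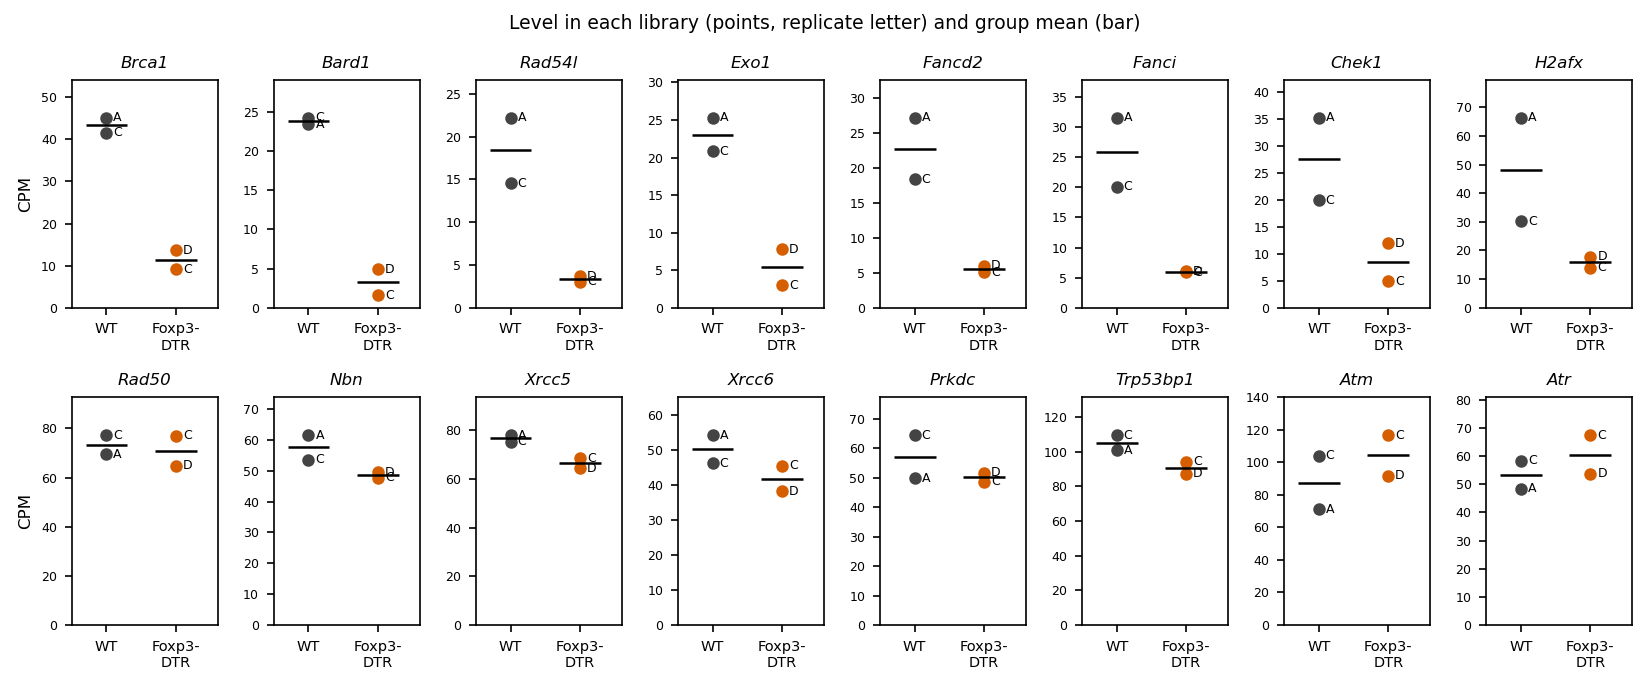
CPM of 16 members in each library (points with the replicate letter) and group mean (bar), each panel with its own axis from 0. The upper 8 members, from Brca1 to H2afx, have no overlap between WT and Foxp3-DTR, and the lower 8, from Rad50 to Atr, overlap or lie close together.

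The helicases and junction nucleases unwind or cut the joined chromosomes at the end of recombination. By edgeR 0 of the 5 passed the threshold, and the median log2 fold change was -0.63. At an unadjusted p under 0.05, 2 were lower (all genes tested: 7.89%), and DESeq2 called 1 (Brip1). Brip1, the helicase that binds Brca1, measured 27.4 and 12 CPM in WT and 2.98 and 7.79 CPM in Foxp3-DTR (-1.87 ± 0.61, adjusted p = 0.221, edgeR). Eme1, the partner of the nuclease Mus81, measured 13.9 and 4.86 CPM in WT and 1.59 and 2.69 CPM in Foxp3-DTR (-2.12 ± 0.67, adjusted p = 0.200, edgeR). In both genes WT A lay far above WT C, so the spread within WT was wide. Blm, the helicase that dissolves joined molecules, stood at 15.9 and 17.8 CPM in WT and at 10.3 and 11.5 CPM in Foxp3-DTR (-0.63 ± 0.30, adjusted p = 0.413, edgeR). Mus81 itself measured 17.8 and 22.8 CPM in WT and 14.4 and 17.9 CPM in Foxp3-DTR, with overlap. Slx4, the scaffold that holds these nucleases, measured 17.2 and 20.4 CPM in WT and 23.9 and 20.3 CPM in Foxp3-DTR, at 0.23 ± 0.26. The 95% intervals of the log2 fold change overlapped between the nuclease and its partner, from -1.02 to 0.36 for Mus81 and from -3.73 to -0.52 for Eme1. Without WT A the values of Eme1 and Brip1 were -1.17 and -1.14, and without Foxp3-DTR D that of Brip1 was -2.71.

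Among the Fanconi genes 3 lay near -2 on the log2 scale and the other 5 between -0.65 and -0.03. Fanci and Fancd2 form the pair that is ubiquitinated at a crosslink, Fanca, Fancb, Fancc, Fancg and Fancl belong to the core complex that does it, and Fancm recognises the stalled fork. Of the 8 genes 1 fell (all genes tested: 0.426%), and the median log2 fold change was -0.60. At an unadjusted p under 0.05, 4 were lower (all genes tested: 7.89%). Both Foxp3-DTR libraries lay below both WT libraries for 7, as for 23.7% of all genes tested. Fanci (ENSMUSG00000039187.16, chr7:79391929-79450264, plus strand, GRCm38) measured 31.5 and 20.1 CPM in WT and 5.90 and 6.09 CPM in Foxp3-DTR. Both Foxp3-DTR libraries were nearly equal, and the spread lay within WT. Its log2 fold change was -2.10 ± 0.34 (edgeR, adjusted p = 0.0486), a 4.30-fold higher level in WT, and 16.0% of its exonic bases are shared with Polg on the other strand.

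Fancd2 resembled its partner, at 27.1 and 18.3 CPM in WT and 5.04 and 6.02 CPM in Foxp3-DTR (-2.04 ± 0.35, adjusted p = 0.0523, edgeR). Fanca measured 18 and 17.4 CPM in WT and 4.64 and 3.05 CPM in Foxp3-DTR (-2.20 ± 0.38, adjusted p = 0.0543, edgeR). These values missed the threshold by little, and their groups were as far apart as those of Fanci. The rest of the core complex lay nearer 0. Fancg measured 30.9 and 36.0 CPM in WT and 22.1 and 20.6 CPM in Foxp3-DTR (-0.65 ± 0.23, adjusted p = 0.265, edgeR). Fancb, the member on the X chromosome, had a log2 fold change of -0.56, Fancl, the ligase subunit, one of -0.52, and Fancc one of -0.35. Fancm measured 12.6 and 20.4 CPM in WT and 19.8 and 12.4 CPM in Foxp3-DTR, so its libraries crossed and its fold change was -0.03. The ratio of Fancd2 to Fancl CPM was 1.33 and 1.07 in WT and 0.466 and 0.395 in Foxp3-DTR. In the gene models 13.7% of the exonic bases of Fancl are shared with Vrk2.

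End joining had the median nearest to 0 among the role groups of more than 5 genes. Of the 7 genes 0 passed the threshold by edgeR and 0 by DESeq2, 1 had an unadjusted p under 0.05, and the median log2 fold change was -0.21. Of the 7, 5 (71.4%) lay within 0.5 of 0, as did 69.9% of all genes tested. Xrcc5 and Xrcc6 encode the ring that clamps a broken end. Xrcc5 measured 78.0 and 75.3 CPM in WT and 68.4 and 64.3 CPM in Foxp3-DTR, with a 95% interval of the log2 fold change from -0.62 to 0.21. Xrcc6 measured 54.3 and 46.2 CPM in WT and 45.6 and 38.2 CPM in Foxp3-DTR, with an interval from -0.77 to 0.24. Both were a little lower in each Foxp3-DTR library. Prkdc, the kinase that the ring recruits, measured 49.8 and 64.4 CPM in WT and 48.7 and 51.7 CPM in Foxp3-DTR, with overlap. Trp53bp1, which shields ends from resection, measured 101 and 109 CPM in WT and 94.2 and 87.2 CPM in Foxp3-DTR, with an interval from -0.63 to 0.20. Lig4, the ligase of the pathway, had a positive value of 0.22 ± 0.38, from 8.17 and 9.59 CPM in WT and 12.1 and 8.57 CPM in Foxp3-DTR, which overlapped. The ratio of Brca1 to Trp53bp1 CPM, whose products oppose each other in the choice between resection and end joining, was 0.447 and 0.379 in WT and 0.0971 and 0.157 in Foxp3-DTR.

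Polq and Parp1 belong to the alternative pathway, which joins resected ends at short matching stretches. Polq, its polymerase, measured 9.36 and 9.96 CPM in WT and 1.59 and 5.31 CPM in Foxp3-DTR (-1.48 ± 0.63, adjusted p = 0.355, edgeR). Its log2 fold change was -0.86 without Foxp3-DTR C and -2.59 without Foxp3-DTR D. It was the lowest of its subgroup per length, at 0.998 CPM per kilobase in WT and 0.357 in Foxp3-DTR. Parp1, which marks breaks with polymers of ADP-ribose, measured 131 and 108 CPM in WT and 70.2 and 90.0 CPM in Foxp3-DTR (-0.58 ± 0.21, adjusted p = 0.268, edgeR). For both genes the libraries of the groups did not overlap, and the test was not passed. The ratio of Polq to Lig4 CPM, the polymerase of the alternative pathway against the ligase of the classical one, was 1.15 and 1.04 in WT and 0.131 and 0.62 in Foxp3-DTR.

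The 2 mismatch repair genes had small fold changes, 0 passed by edgeR or DESeq2, and 1, Msh6, had an unadjusted p under 0.05. Msh6, which recognises mispaired bases, measured 101 and 112 CPM in WT and 77.8 and 80.8 CPM in Foxp3-DTR (-0.42 ± 0.17, adjusted p = 0.330, edgeR). Pms2, of the complex that nicks the new strand, measured 19.3 and 20.7 CPM in WT and 20.4 and 19.6 CPM in Foxp3-DTR. The Pms2 libraries interleaved, and its interval ran from -0.60 to 0.60.

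**Figure D3:**
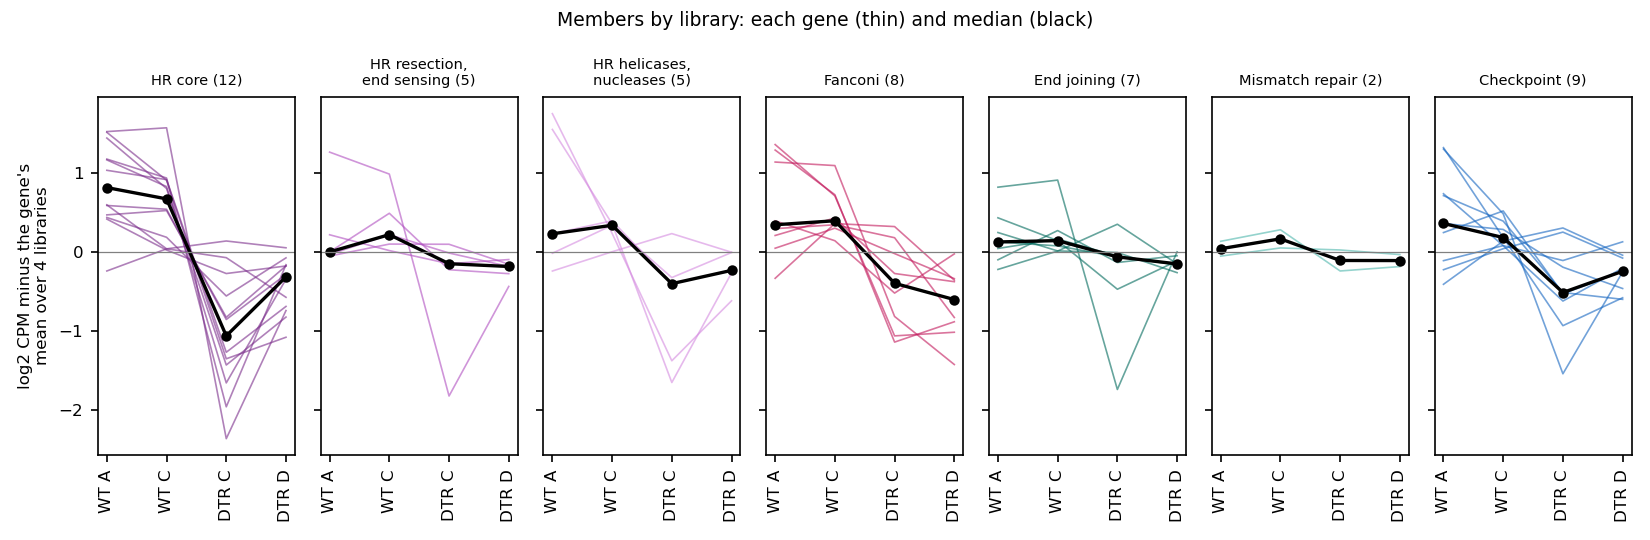
Log2 CPM of each member in each library minus its mean over the 4 libraries, by role group, with the median of the group in black; lines join the values of 1 gene and imply no order of libraries. Recombination core medians are 0.82 and 0.67 in WT and -1.06 and -0.31 in Foxp3-DTR, whereas the end joining medians lie between -0.15 and 0.15.

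Checkpoint genes ranged from Atm, with the highest fold change of the 48, to Chek1. Of the 9 genes 0 passed the threshold by edgeR, and 6 were lower in Foxp3-DTR at an unadjusted p under 0.05 (all genes tested: 7.89%). Fold changes were positive in 3 genes, and the median was -0.77. DESeq2 called 3 of the 9 lower, Timeless, Chek1 and H2afx. Atm, the kinase that answers to breaks, measured 71.2 and 104 CPM in WT and 117 and 91.9 CPM in Foxp3-DTR (0.25 ± 0.24). Atr, the kinase that answers to exposed DNA at stalled forks, measured 48.5 and 58.3 CPM in WT and 67.4 and 53.7 CPM in Foxp3-DTR (0.18 ± 0.21). Atrip, the partner that places Atr on DNA, measured 25.8 and 29.4 CPM in WT and 25.8 and 30.4 CPM in Foxp3-DTR (0.03 ± 0.24). The libraries of the groups overlapped in all 3.

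The other 6 checkpoint genes, set apart here by the sign of their fold changes, had lower values in both Foxp3-DTR libraries. Timeless, which couples the helicase to the polymerase, measured 51.0 and 40.8 CPM in WT and 21.8 and 20.5 CPM in Foxp3-DTR (-1.11 ± 0.23, adjusted p = 0.0778, edgeR). Its partner Tipin measured 85.4 and 54.2 CPM in WT and 33.4 and 44.5 CPM in Foxp3-DTR (-0.84 ± 0.28, adjusted p = 0.225, edgeR). In WT Tipin was the highest of the subgroup per length, at 37.3 CPM per kilobase. In Foxp3-DTR it stood at 20.8 and Xrcc5 was higher, at 26.0. Chek1, the kinase that Atr activates, measured 35.1 and 19.9 CPM in WT and 4.91 and 12 CPM in Foxp3-DTR (-1.71 ± 0.51, adjusted p = 0.179, edgeR). The ratio of Chek1 to Atr CPM was 0.724 and 0.342 in WT and 0.0728 and 0.223 in Foxp3-DTR, so it differed between the groups and also within each.

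Chek2, the kinase that Atm activates, measured 34.7 and 41.9 CPM in WT and 20.3 and 24.7 CPM in Foxp3-DTR (-0.77 ± 0.24, adjusted p = 0.203, edgeR). Topbp1, which switches Atr on, measured 149 and 141 CPM in WT and 101 and 84.1 CPM in Foxp3-DTR (-0.64 ± 0.18, adjusted p = 0.157, edgeR). H2afx, the histone variant phosphorylated around a break, measured 66.2 and 30.1 CPM in WT and 13.9 and 17.8 CPM in Foxp3-DTR (-1.60 ± 0.40, adjusted p = 0.123, edgeR). WT A carried the highest H2afx level, and its fold change ranged from -2.06 to -0.91 as each library was left out. In the gene models 10.2% of its exonic bases are shared with another gene.

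Members with low fold changes also varied together inside a group. Of the 17 members at a log2 fold change of -1 or under, 15 were higher in WT A than in WT C and 15 were higher in Foxp3-DTR D than in Foxp3-DTR C, with median log2 differences of 0.34 and 0.61. Of the other 31 members, 10 and 13 were, with medians of -0.15 and -0.09. A list of 24 proliferation genes, expressed in dividing cells, had the same order, higher in WT A for 23 and in Foxp3-DTR D for 24, with medians of 0.69 and 0.66. These are differences between 2 libraries each and carry no test. The 17 were set apart by their fold change between the groups, not by this order within groups. Per length, the 17 had a median of 3.39 CPM per kilobase in WT and 0.723 in Foxp3-DTR, and the other 31 had 6.40 and 4.91. The larger difference between the groups in the 17 follows from how they were set apart.

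The proliferation genes themselves stood lower in Foxp3-DTR. All 24 had negative fold changes, with a median of -1.86. Both Foxp3-DTR libraries lay under both WT libraries for all 24, as for 23.7% of all genes tested. Mcm6 of the replicative helicase fell from 259.9 and 234.4 CPM in WT to 109.8 and 116.7 CPM in Foxp3-DTR (-1.13 ± 0.18, adjusted p = 0.0451, edgeR). Their summed level was 3494 and 2298 CPM in WT A and C, and 736 and 1102 CPM in Foxp3-DTR C and D. Mki67 measured 519 and 323 CPM in WT and 62.8 and 123 CPM in Foxp3-DTR (-2.18, adjusted p = 0.0741, edgeR), Mcm2 had a log2 fold change of -1.86, Cdk1 one of -2.41 and Pcna one of -1.12. These 4 did not pass. The part of proliferation in the members' values was not tested, and neither was that of the suprabasal cells, whose summed markers were high in WT A and Foxp3-DTR D.

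**Figure D4:**
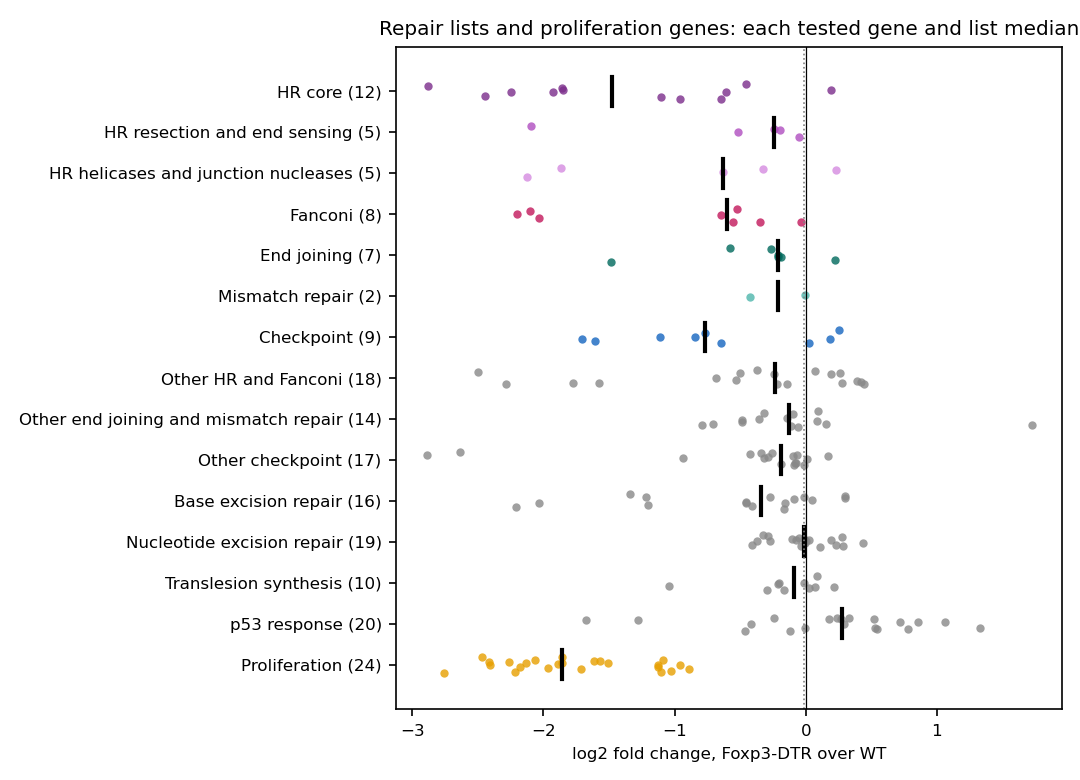
Log2 fold change, Foxp3-DTR over WT, of each tested gene (points) in the 7 role groups of members, 7 other repair and damage response lists and the proliferation list, with list medians (black bars) and the median of all genes (dotted line, -0.01). Medians run from -1.86 for proliferation and -1.48 for the recombination core to -0.02 for nucleotide excision repair and 0.28 for the p53 response.

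Other genes of the same pathways had medians closer to 0 than the members, and this difference was not tested. Members and lists were chosen with earlier results of these data known, so the comparison cannot show that the 2 sets differ. Of 18 further recombination and Fanconi genes tested, 0 passed in either direction, and the median was -0.23. At an unadjusted p under 0.05, 4 of the 18 were lower, where 7.89% of all genes were. Of 14 further end joining and mismatch repair genes 0 passed, 2 were lower and 1 higher at an unadjusted p under 0.05, and the median was -0.13. The smallest p there had the opposite sign, in Parp3, a relative of Parp1, at 5.21 and 7.50 CPM in WT and 26.5 and 15.6 CPM in Foxp3-DTR (1.72 ± 0.40, adjusted p = 0.0943, edgeR). Of 17 further checkpoint genes 1 fell, Clspn, which brings Chek1 to Atr, at 46.8 and 35.7 CPM in WT and 4.44 and 8.86 CPM in Foxp3-DTR (-2.63 ± 0.39, adjusted p = 0.0427, edgeR), and the median was -0.19.

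Repair pathways that do not handle breaks differed among themselves. In base excision repair, which removes damaged bases, 1 of 16 genes fell (all genes tested: 0.426%), and the median was -0.34. At an unadjusted p under 0.05, 5 (31.2%) were lower (all genes tested: 7.89%), and 5 lay at -1 or under (7.47%). The gene that fell was Ung, which removes uracil from DNA, at 56.7 and 37.9 CPM in WT and 10.8 and 12.3 CPM in Foxp3-DTR (-2.03 ± 0.29, adjusted p = 0.0402, edgeR). In nucleotide excision repair, which cuts out bulky damage such as that of ultraviolet light, 19 of 19 genes lay within 0.5 of 0, 0 passed by edgeR and 0 had an unadjusted p under 0.05, and the median was -0.02. Its smallest p was that of Xpc, at 94.5 and 122 CPM in WT and 78.3 and 84.95 CPM in Foxp3-DTR (-0.41 ± 0.20, adjusted p = 0.431, edgeR). Among 10 genes of translesion synthesis, which copies past damage, 0 passed, 1 had an unadjusted p under 0.05 and the median was -0.09, with the smallest p in Rad18, at 21.6 and 17.8 CPM in WT against 8.42 and 10.7 CPM in Foxp3-DTR (-1.04 ± 0.31, adjusted p = 0.171, edgeR).

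Trp53, which encodes the transcription factor p53 that damage checkpoints activate, and its target genes showed no common direction. Of 20 genes 1 rose and 0 fell by edgeR, 2 were lower and 2 higher at an unadjusted p under 0.05, 13 fold changes were positive and 7 negative, and the median was 0.28. Btg2, an antiproliferative factor, rose from 48.0 and 50.3 CPM in WT to 131 and 116 CPM in Foxp3-DTR (1.33 ± 0.18, adjusted p = 0.0325, edgeR). Cdkn1a, the cell cycle inhibitor that p53 induces, measured 63.5 and 8.36 CPM in WT and 12.8 and 48.0 CPM in Foxp3-DTR, so its replicates of 1 group differed far more than the groups. The libraries with high Cdkn1a, WT A and Foxp3-DTR D, were those with high suprabasal markers. Mdm2, which p53 induces and which degrades it, measured 51.9 and 60.4 CPM in WT and 73.0 and 64.3 CPM in Foxp3-DTR (0.29 ± 0.19, adjusted p = 0.584, edgeR). Trp53 itself measured 182 and 133 CPM in WT and 179 and 177 CPM in Foxp3-DTR, with overlap.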

How the data were processed

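RNA sequencing libraries of sorted hair follicle stem cells, 2 WT and 2 Foxp3-DTR, were compared. The authors deposited raw counts of reads for each gene symbol in each library, without normalization. The submitters' processing notes name HTSeq 0.6.1, SAMtools 0.1.19.0, TopHat2 2.0.12, Bowtie2 2.1.0.0 and CASAVA 1.8.2, and build mm10. Neither the annotation nor how the counter treated strand is given in the sources used here. The table's 5 special rows that name no gene (62.0% to 70.1% of its counts, mostly alignments that were not unique) were left out, and 27 date-like names were never named as genes. Gene counts per library were 13911765 (WT A), 15923154 (WT C), 15493876 (Foxp3-DTR C) and 14351776 (Foxp3-DTR D).

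The whole table was fitted in R 4.3.3 with edgeR 4.0.16 (TMM factors, filterByExpr, robust glmQLFit, glmQLFTest, two-sided). P-values were adjusted by Benjamini-Hochberg over all 12920 tested genes and called at 0.05, and the common biological coefficient of variation was 0.309. Standard errors and 95% intervals come from each fold change and its F statistic. DESeq2 1.42.0, limma-voom (limma 3.58.1), other scaling factors, no filter, no robust fit and each library left out were alternatives. So were another placing of Mre11a, Rad50 and Nbn, and another placing of Polq and Exo1. The fit was tested on simulated data. Coordinates, exon lengths and overlaps come from GENCODE M21 on GRCm38, the assembly mm10 names, and promoters from RefSeq (GRCm38.p6). The members and lists were chosen with earlier results of these data known. Values in each library are given for members past the threshold, the 3 smallest p in each role group, members of opposite sign to their group's median, and the highest and lowest per length. From the other lists, genes past the threshold or else the smallest p were named, with Mki67, Pcna, Mcm2, Cdk1, Cdkn1a, Mdm2 and Trp53. Of the genes this rule took, 1 is not reported here. Other values were added after they had been seen.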

Additional observations from a re-analysis of the deposited data

How the results depend on the processing

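No paired analysis was possible because the groups share only 1 replicate letter (C). DESeq2 gave 13 members lower, 10 of them recombination and Fanconi genes and 3 others, and 513 lower and 489 higher genes in all. Without the filter on low counts these were 9 members (8 and 1), with 252 and 277 genes. Limma-voom gave 0 members lower, 0 of them recombination and Fanconi genes, with 23 lower and 70 higher genes, and 22 members had an unadjusted p under 0.05. EdgeR without the robust fit gave 0 members lower, 0 in that subgroup, and 25 lower genes, with 23 members at an unadjusted p under 0.05. Leaving out 1 library in turn gave 0 to 6 members lower (0 to 5 recombination and Fanconi genes, 0 to 1 others), and 14 to 220 lower and 66 to 203 higher genes over the table. A lone library is then assumed to vary like the other group. In these the members at an unadjusted p under 0.05 were 18 without WT A, 19 without WT C, 13 without Foxp3-DTR C and 21 without Foxp3-DTR D. The median of the recombination and Fanconi subgroup was -0.96 with Mre11a, Rad50 and Nbn placed with the checkpoint genes. It stayed at -0.64 with Polq placed with recombination and Exo1 with mismatch repair. Relative log expression and upper-quartile factors each gave 3 members lower. Under all 10 fits 0 members were higher. The cause of these shifts was not tested. With 2 libraries a group, members at a few CPM had wide intervals, and a fold change that missed the threshold is not shown to be absent.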
